A study of Mus musculus with 17 samples.

Results

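Antigen presentation on class I molecules of the major histocompatibility complex (MHC) was followed through 10 genes, chosen by name from the 36271 genes that the 4 count tables list between them. They were the heavy chains H2-K1 and H2-D1, their light chain B2m, the peptide transporter genes Tap1 and Tap2, the loading factor Tapbp, the inducible proteasome subunits Psmb8, Psmb9 and Psmb10, and the transcriptional activator Nlrc5. All 10 were listed in every table, and all 10 passed the low-count filter in every comparison of neurons. RNA had been sequenced from 17 mouse libraries of the C57BL/6 strain, 14 from primary neurons and 3 from hippocampus. The neuron libraries formed 7 groups of 2: an ADM treatment with its own control; a first experiment (set 1) with a control and an ApoE particle; and a second experiment (set 2) with a control, an ApoE particle and a reconstituted ApoE particle. The hippocampus groups held 1 library each: control shRNA came without FC in the first and together with FC in the second, and the third had ApoE shRNA and FC. The labels do not spell out ADM or FC, give no dose, time or age, and do not say how the shRNA was delivered or which cells it reached. Nor is it stated that replicate libraries are from different cultures, so the p-values measure only the spread between these samples, which may be technical.

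A class I molecule is a heavy chain paired with β-2-microglobulin, which carries a short peptide to the cell surface for inspection by CD8 T cells. The peptide is cut from cellular proteins by the proteasome, whose catalytic subunits can be exchanged for inducible ones to form the immunoproteasome. It is pumped into the endoplasmic reticulum by the transporter that Tap1 and Tap2 form, and it is loaded onto the heavy chain with the help of tapasin, the product of Tapbp. Interferons induce the whole route, in part through Nlrc5, a transactivator that binds the promoters of class I genes. Resting neurons are known for low class I expression, and glia and infiltrating immune cells can express it strongly.

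On the mm10 assembly, 7 of the 10 genes lie on chromosome 17, within or next to the mouse MHC. H2-K1 (ENSMUSG00000061232) spans chr17:33996017-34000333 on the minus strand, and H2-D1 (ENSMUSG00000073411) spans chr17:35262730-35267499 on the plus strand. Tapbp lies at chr17:33915899-33929288, Psmb9 at chr17:34181988-34187764, Tap1 at chr17:34187553-34197225, Psmb8 at chr17:34197721-34201454 and Tap2 at chr17:34203527-34216321. B2m is on chromosome 2 (chr2:122147686-122153083), and both Psmb10 (chr8:105935735-105938444) and Nlrc5 (chr8:94434356-94527272) are on chromosome 8. Tap1 and Psmb9 stand head to head and overlap at their 5′ ends, and the strand setting of the counting is not given in the sources used here, so reads from that overlap cannot be assigned to either gene. Class I heavy chains also share sequence. Of the 50-base words in the principal H2-K1 transcript, 8.79% occur in a transcript of another gene, 6.94% of all its words in H2-D1, and for H2-D1 the share found in other genes is 14.3%. The split of reads between those heavy chains is therefore uncertain, whereas B2m, Psmb8, Psmb9, Psmb10 and Nlrc5 share no such word with another gene.

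RefSeq promoter windows (GRCm38.p6, the mm10 assembly, 250 bases before to 50 after a start site) were matched for 8 of the 10 genes. The stretches before the start sites of B2m and H2-K1, which encode the chains of one complex, are shown because both genes fell and rose with the same treatments in the comparisons that follow. Capitals mark the core of the interferon-stimulated response element (GAAA, 2 bases of any kind, GAAA) and the NF-kB motif, which were searched on both strands. Neither stretch overlaps an annotated exon.
B2m, chr2:122147437-122147685, plus strand: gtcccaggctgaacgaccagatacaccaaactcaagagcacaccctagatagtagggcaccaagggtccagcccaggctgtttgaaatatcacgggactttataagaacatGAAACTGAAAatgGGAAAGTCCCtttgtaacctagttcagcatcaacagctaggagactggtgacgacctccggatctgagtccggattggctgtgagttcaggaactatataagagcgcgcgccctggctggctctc
H2-K1, chr17:34000348-34000597, minus strand: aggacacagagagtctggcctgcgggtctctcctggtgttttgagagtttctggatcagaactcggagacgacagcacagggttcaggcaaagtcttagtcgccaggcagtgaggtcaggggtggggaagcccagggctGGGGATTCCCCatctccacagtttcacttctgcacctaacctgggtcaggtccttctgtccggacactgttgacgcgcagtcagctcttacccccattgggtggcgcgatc

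The response element core was found in the B2m window and in none of the other 7 matched genes, and it occurs in 3.44% of all 32851 windows. Only exact matches to those letters were searched. A variant of the element would stay unmarked, so a window without a match may still hold one. The NF-kB motif was found in B2m, H2-K1 and H2-D1, against 2.46% of all windows. It reads on both strands of the heavy-chain promoters, where the matches overlap. Around it, 105 of 111 aligned bases were identical between H2-K1 and H2-D1. The short stretch below shows that motif in both heavy chains, in capitals. The short H2-D1 stretch overlaps 1 annotated exon, whereas the short H2-K1 stretch overlaps none.
H2-K1, chr17:34000438-34000467, minus strand: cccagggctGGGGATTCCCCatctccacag
H2-D1, chr17:35262914-35262943, plus strand: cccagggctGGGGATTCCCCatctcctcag
The TGACG half-site of the class I promoter module was present in the windows of B2m, H2-K1, H2-D1, Tap1 and Psmb9, against 20.8% of all windows. Tap1 and Psmb9 share it, because 225 bases separate their RefSeq start sites. It is in capitals in the Tap1 stretch, which overlaps 1 annotated exon.
Tap1, chr17:34187458-34187487, plus strand: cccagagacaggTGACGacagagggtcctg
A CCAAT box was found in 6 of the 8 genes (37.4% of all windows), and the gamma-activated site (TTC, 3 bases, GAA) in Psmb8 alone (8.3%). A match here is a description of letters and not of a bound site.

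The libraries held between 14.62 M and 19.14 M counts each. Within each neuron group the counts of the 2 libraries differed beyond sampling noise, least in the set 1 ApoE particle group (chi-square over its degrees of freedom, 2.63) and most in the ADM group (68.1). Neuron markers summed to between 5473 and 7776 CPM (a gene's count scaled to the same total in every library) in the neuron libraries, and astrocyte markers to between 705 and 4667 CPM, so the cultures labelled as neurons also held astrocyte transcripts. Microglia markers stood between 14.2 and 16.6 CPM in all set 2 libraries and reached 406 CPM in set 1. In bulk RNA, fewer cells of a type and less RNA per cell cannot be told apart.

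Per kilobase of transcript, B2m had the highest level of the 10 genes in the neuron libraries, with a median of 121 CPM per kb and a range of 15.1 to 168. The heavy chains followed, H2-D1 at a median of 31.6 and H2-K1 at 22.4 CPM per kb. Tapbp (15.3), Psmb10 (12.5) and Tap1 (7.92) were in between. Nlrc5 (1.35), Tap2 (1.24), Psmb9 (1.18) and Psmb8 (0.490 CPM per kb) were the lowest. Summed over the 10 genes, the level was 70.3 and 124 CPM in the ADM controls, 238 and 188 in the set 1 controls and 481 and 447 in the set 2 controls. The controls of the 3 experiments did not overlap in this sum. For each gene the ADM control group had the lowest mean of the 7 neuron groups. The highest mean was in the set 2 controls for 6 genes, in the set 2 reconstituted particle group for Tapbp, Psmb8 and Psmb9, and in the set 1 ApoE particle group for Tap2. Between groups that are neighbours in this order, library ranges overlapped in 1 of 6 pairs for H2-K1 and Nlrc5, and in 4 of 6 for Tap2 and Psmb10. Those levels were set across separately processed tables and were not tested. The share of all genes with the same order or overlap was not counted, so it is not known whether these genes are unusual in it.

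**Figure D1:**
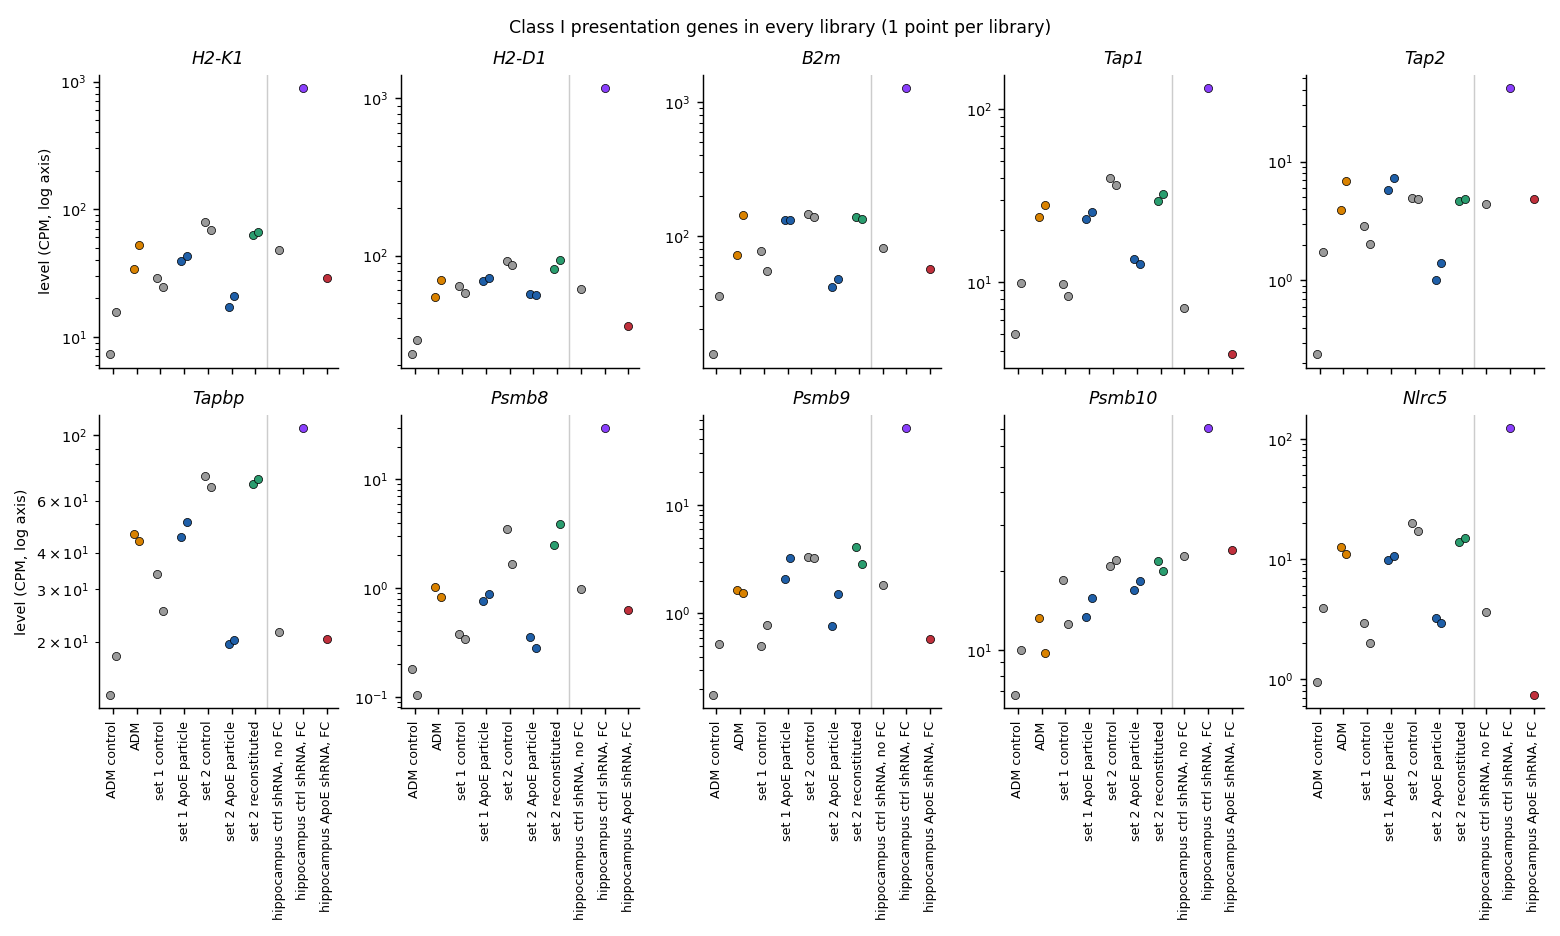
Level of each of the 10 genes (CPM, log axis) in all 17 libraries, 1 point per library, with groups on the horizontal axis and a grey line between neurons and hippocampus. The set 2 ApoE particle libraries lie below the set 2 controls, the set 1 ApoE particle libraries lie above their controls for most genes, and the hippocampus library with control shRNA and FC stands above the other 16 for all 10 genes.

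The second experiment asked how neurons respond to an ApoE particle and to a reconstituted one. With the ApoE particle, 9 of the 10 genes fell (edgeR quasi-likelihood test, Benjamini-Hochberg adjusted over 16388 genes), against 12.1% of all genes tested that fell and 10% that rose. The median log2 fold change of the 10 genes was −1.74, against 0.00 over all genes. Psmb10 was the member that did not pass. The heavy chain H2-K1 stood at 79.7 and 68.7 CPM in the controls and at 17.0 and 20.8 CPM with the particle, a fall of 3.93-fold (log2 fold change −1.98 ± 0.10 SE, adjusted p = 2.82e-13). H2-D1 moved less, from 92.1 and 87.7 CPM to 56.7 and 56.6 CPM (log2 −0.67 ± 0.07, adjusted p = 1.31e-07). Its fold change may carry reads of the other heavy chains. The light chain B2m fell from 145 and 138 CPM to 41.4 and 47.6 CPM (log2 −1.67 ± 0.07, adjusted p = 2.96e-15). For all 3 genes the particle libraries lay below both controls, but how many of all genes did so was not counted.

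The peptide transport and loading genes moved by similar amounts. Tap1 fell from 40.0 and 36.6 CPM to 13.7 and 12.7 CPM (log2 −1.54 ± 0.11, adjusted p = 7.75e-11). Tap2, the other transporter chain, fell from 4.90 and 4.81 CPM to 1.00 and 1.41 CPM (log2 −2.01 ± 0.28, adjusted p = 1.12e-05). Tapbp, which bridges the transporter and the empty heavy chain, fell from 72.5 and 66.8 CPM to 19.6 and 20.2 CPM (log2 −1.81 ± 0.08, adjusted p = 1.92e-14). For none of these genes did the library ranges of the particle and control groups overlap, again without a count over all genes.

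Of the immunoproteasome subunits, Psmb8 showed the largest fall, from 3.48 and 1.68 CPM to 0.354 and 0.281 CPM (log2 −3.00 ± 0.50, adjusted p = 9.29e-05), which rests on 11 counts in the particle group. Psmb9 fell from 3.30 and 3.25 CPM to 0.766 and 1.52 CPM (log2 −1.51 ± 0.35, adjusted p = 0.00255). Psmb10 stood at 20.96 and 22.02 CPM in the controls and 16.9 and 18.4 CPM with the particle (log2 −0.29 ± 0.12, adjusted p = 0.0762). Psmb10 thus had the smallest change of the 3 subunits and was also the most abundant per kilobase. Nlrc5, the class I transactivator, fell from 19.9 and 17.2 CPM to 3.24 and 2.92 CPM, which is 6.03-fold (log2 −2.59 ± 0.17, adjusted p = 2.73e-11).

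With the reconstituted particle no such change was called. Against the same controls, 0 of the 10 genes and 0 of 16388 genes were called by edgeR (0.00% rose and 0.00% fell), and DESeq2 also called 0 of the 10 and 0 genes in all. At an unadjusted p under 0.05 there were 375 genes higher and 401 lower, including 3 of the 10 genes, all lower. Those 3 were Tap1 (29.5 and 32.4 CPM, log2 −0.29 ± 0.10), Nlrc5 (13.9 and 14.9 CPM, log2 −0.35 ± 0.14) and H2-K1 (62.5 and 66.7 CPM, log2 −0.18 ± 0.08). The other 7 had log2 fold changes between −0.04 and 0.33. B2m, for example, stood at 139 and 134 CPM, and Tapbp at 68.3 and 71.0 CPM.

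Set directly against the ApoE particle, the reconstituted particle gave higher levels of 9 of the 10 genes, while 11.4% of all genes rose and 8.88% fell. That comparison shares its ApoE particle libraries with ApoE particle against control, and its reconstituted libraries with reconstituted against control. H2-K1 was 3.46-fold higher (log2 1.79 ± 0.10), B2m 3.11-fold (1.64 ± 0.07), Tapbp 3.55-fold (1.83 ± 0.08), Nlrc5 4.73-fold (2.24 ± 0.17) and Psmb8, at 2.49 and 3.92 CPM, 10.1-fold (3.33 ± 0.49). Psmb10 again did not pass (log2 0.27 ± 0.12, adjusted p = 0.104). The reconstituted libraries lay above both ApoE particle libraries for each of the 10 genes, and the share of all genes so separated was not counted.

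**Figure D2:**
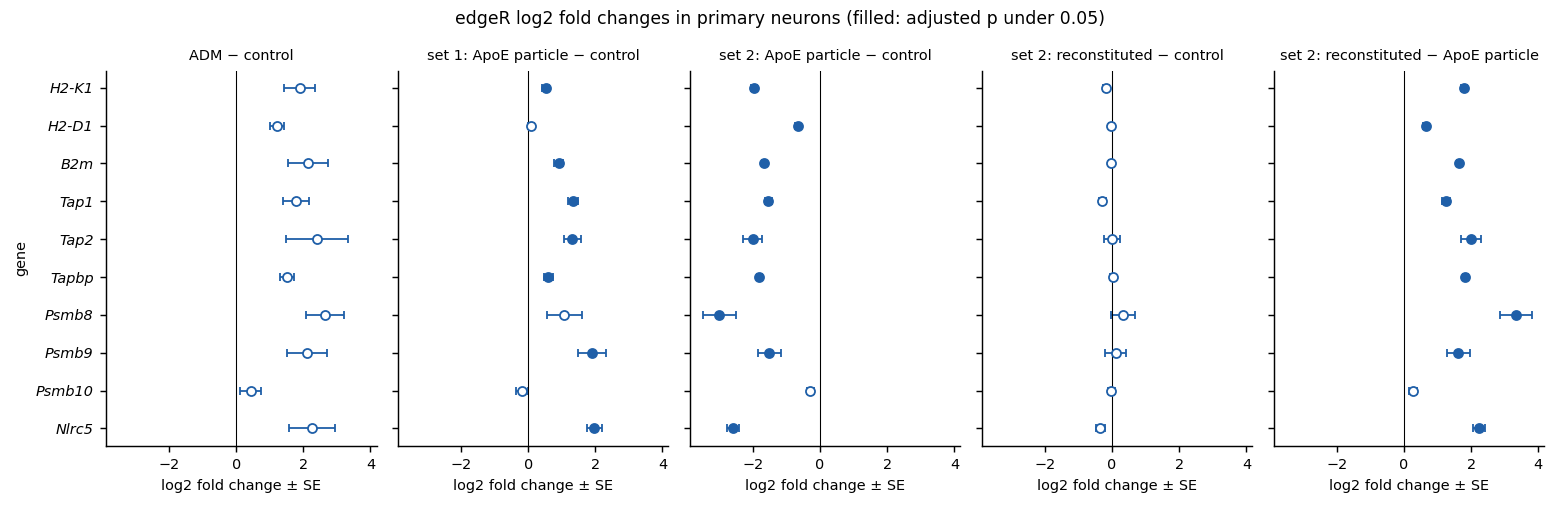
edgeR log2 fold change ± SE of the 10 genes in the 5 neuron comparisons, 2 libraries per group; filled points passed an adjusted p of 0.05. The ApoE particle gives 9 filled points below 0 in set 2 and 7 above 0 in set 1, and the reconstituted particle against control gives none.

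Genes around the class I route in set 2 were read from lists of known function. Among other class I heavy chains and class I-like genes, 7 of 17 tested fell with the ApoE particle and 1 rose. They included the non-classical heavy chains H2-T23 (log2 −3.57 ± 0.32), H2-Q4 (−2.80 ± 0.19), H2-Q7 (−1.94 ± 0.32) and H2-T22 (−1.86 ± 0.15). Among factors that transcribe class I genes, 9 of 22 fell and 1 rose. Irf7, an interferon-induced regulator, went from 30.9 and 32.7 CPM to 0.354 and 0.394 CPM (log2 −6.39 ± 0.21), and Irf9 fell by 2.87 on the log2 scale. Of 12 genes tested from a list of interferon and TNF ligands, receptors and signalling genes, 3 fell and 1 rose. Usp18, an inhibitor of the type I interferon receptor, fell by 6.38 on the log2 scale, Tnfrsf1a by 0.70 and the kinase gene Jak1 by 0.22, whereas Jak2 rose (0.26 ± 0.06). None of the 10 interferon ligand genes searched had more than 2 counts in any of the 17 libraries, too few to pass the low-count filter. Of those ligands, 7 were listed in no table.

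The rest of the peptide route did not move as a block. Constitutive core proteasome subunits had 1 of 14 called, Psma4, which rose (log2 0.22 ± 0.07), and their median was 0.03. The activator subunits Psme1 and Psme2, which open the proteasome, fell (−0.56 ± 0.08 and −0.63 ± 0.09), while the assembly factors Psmg4 and Psmg2 rose. Among peptide loading and trimming genes, 6 of 16 rose and 3 fell. The chaperones Calr (0.48 ± 0.04), Pdia3 (0.48 ± 0.04) and Canx (0.35 ± 0.05) rose, whereas Erap1, the aminopeptidase that trims peptides in the endoplasmic reticulum, fell (−1.13 ± 0.13).

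Cell type markers in set 2 were counted beside these results. Microglia markers overlapped between the 3 groups. They summed to 14.3 to 16.6 CPM in the controls, 14.2 to 14.8 CPM with the ApoE particle and 14.7 to 16.0 CPM with the reconstituted particle, and C1qa had between 0 and 2 counts in all 6 libraries. Of 10 astrocyte markers, 8 fell with the ApoE particle and 1 rose, and their sum went from 1604 to 1722 CPM down to 1100 to 1222 CPM. Mural and fibroblast markers fell in 6 of 8 cases, from sums of 136 to 208 CPM to sums of 51.6 to 83.1 CPM, and 5 of 6 proliferation markers fell. Of 11 neuron markers, 5 fell and 1 rose. The part of these markers in the class I result was not tested.

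In set 1, the same label, ApoE particle, went with higher class I levels. There, 7 of the 10 genes rose and 0 fell, against 18.9% of all 16475 genes that rose and 17.4% that fell. The median log2 fold change was 0.99, against −0.01 over all genes. Scaled by library totals alone, the genes called split into 3832 that rose and 2009 that fell, in place of 3119 and 2874. H2-D1, Psmb8 and Psmb10 did not pass.

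B2m rose from 76.8 and 54.8 CPM in the set 1 controls to 132 and 132 CPM with the particle (log2 0.91 ± 0.13, adjusted p = 0.000288). H2-K1 rose from 28.6 and 24.6 CPM to 38.9 and 42.8 CPM (log2 0.52 ± 0.11, adjusted p = 0.00344). H2-D1 stood at 64.4 and 57.8 CPM and at 68.6 and 71.9 CPM (log2 0.10 ± 0.09, adjusted p = 0.429). In both sets the value of the change was larger for H2-K1 than for H2-D1, a difference that was not tested. Without the second particle library the H2-K1 change was 0.45 with an adjusted p of 0.0574.

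The transport and loading genes rose too. Tap1 went from 9.67 and 8.25 CPM to 23.1 and 25.3 CPM (log2 1.33 ± 0.14, adjusted p = 4.04e-05), and Tap2 from 2.85 and 2.03 CPM to 5.76 and 7.25 CPM (1.32 ± 0.25, adjusted p = 0.00176). Tapbp rose from 33.8 and 25.3 CPM to 45.0 and 51.0 CPM (0.60 ± 0.13, adjusted p = 0.00379). In each case both particle libraries lay above both controls, and the share of all genes for which this held in set 1 was not counted.

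Nlrc5 rose from 2.91 and 1.98 CPM to 9.81 and 10.6 CPM, which is 3.92-fold (log2 1.97 ± 0.23, adjusted p = 6.70e-05). Psmb9 rose from 0.506 and 0.791 CPM to 2.09 and 3.21 CPM (1.91 ± 0.41, adjusted p = 0.00382), but without the second particle library it did not pass (1.57, adjusted p = 0.0591). Psmb8 had 12 counts in the controls together and 27 with the particle (1.08 ± 0.52, adjusted p = 0.133). Psmb10 stood at 18.5 and 12.7 CPM and at 13.4 and 15.8 CPM (−0.19 ± 0.18, adjusted p = 0.455), and its groups overlapped. Without the second control it passed in the downward direction (−0.43, adjusted p = 0.0188).

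Neighbours of the route that were called in set 1 more often rose than fell, except among activator and assembly genes and constitutive core subunits. Of 15 other class I genes, 7 rose and 1 fell, among them H2-Q4 (1.40 ± 0.25) and H2-T22 (1.11 ± 0.21). Of 23 transcription factors, 11 rose and 1 fell, led by Nfkb2 (1.33 ± 0.18), Irf8 (1.46 ± 0.25), Nfkb1 (0.68 ± 0.12) and Irf1 (1.03 ± 0.20). Of 12 genes tested from the list of interferon and TNF ligands, receptors and signalling genes, 4 rose and 1 fell. The interferon gamma receptor chain Ifngr1 (1.18 ± 0.15) and the TNF receptors Tnfrsf1a (1.13 ± 0.14) and Tnfrsf1b (1.49 ± 0.24) rose, while Ifngr2, the other chain of the interferon gamma receptor, fell (−0.38 ± 0.09). Of 16 peptide loading and trimming genes, 3 rose, namely Erap1 (1.14 ± 0.12), Calr (0.49 ± 0.09) and Pdia3 (0.40 ± 0.09), and Sppl3 fell (−0.41 ± 0.09). Of 9 activator and assembly genes, Psme4 rose (0.31 ± 0.11) and Psme1 fell (−0.34 ± 0.11). Of 14 constitutive core subunits, 0 were called by edgeR.

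Cell type markers moved at the same time in set 1. Microglia markers rose in 12 of 12 cases, from sums of 103 and 122 CPM to 402 and 406 CPM, and C1qa went from 17.8 and 14.01 CPM to 63.3 and 61.4 CPM. Of 10 astrocyte markers, 8 rose and 1 fell, and of 4 endothelial markers, 2 rose and 0 fell. Of 8 mural and fibroblast markers, 4 rose, such as Col1a1 (2.13 ± 0.14), and 1 fell, Dcn (−3.36 ± 0.21). Of 8 oligodendrocyte lineage markers, 3 rose and 4 fell, and proliferation markers rose in 6 of 6 cases. Neuron markers fell in 10 of 11 cases, from sums of 7464 and 7627 CPM to 5654 and 5473 CPM. Their part in the class I result was not tested. The difference between the particle effects of set 2 and set 1, tested as an interaction, passed for 9 of the 10 genes, all in the direction of a lower value in set 2, against 16.4% of 17098 genes in that direction and 14.8% in the other. The sets differ at the same time in experiment, marker levels and starting class I level, and these cannot be told apart.

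**Figure D3:**
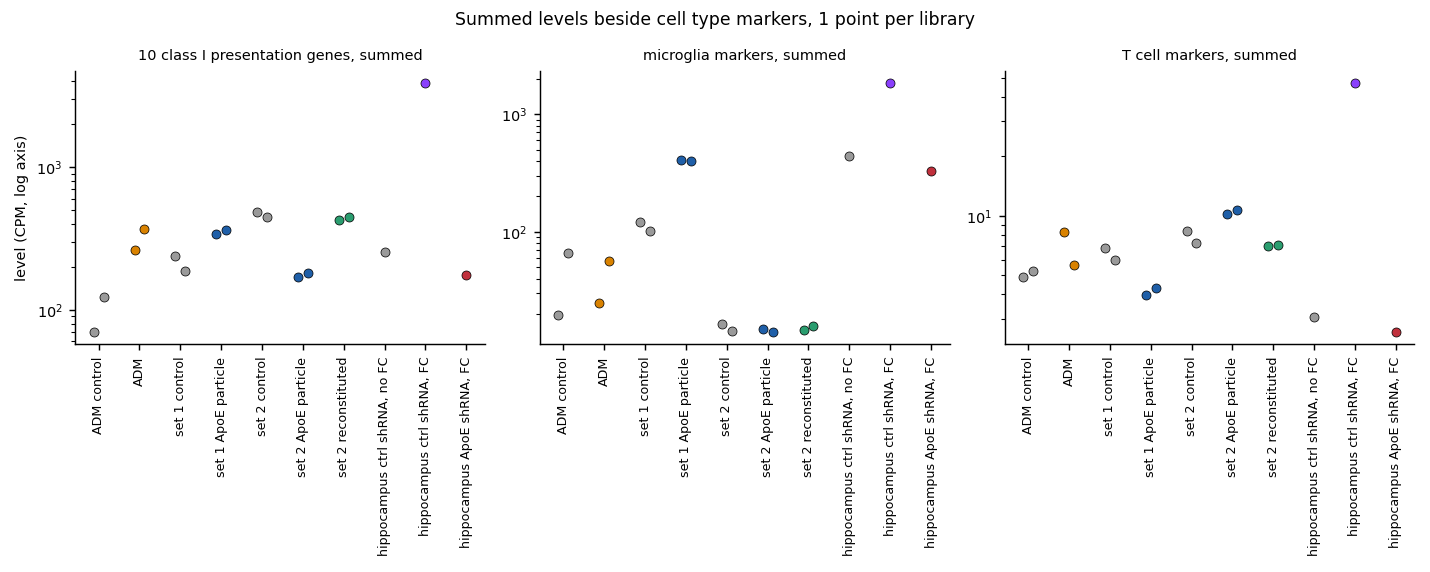
Summed levels of the 10 genes, of microglia markers and of T cell markers (CPM, log axes) in each library. Microglia markers rise with the ApoE particle in set 1, stay between 14.2 and 16.6 CPM in set 2, and stand highest, as T cell markers do, in the hippocampus library with control shRNA and FC.

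With ADM, class I levels were higher than in its controls, but the test called none. Both ADM libraries lay above both controls for 9 of the 10 genes, which is true of 23.2% of the 16191 genes tested. The median log2 fold change was 2.01, against 0.02 over all genes. edgeR called 0 of the 10 genes and 0 genes in all (0.00% in either direction), and at an unadjusted p under 0.05 it counted 979 genes higher and 447 lower, including 9 of the 10 genes, all higher. DESeq2 called 5 of the 10 and 333 genes, and edgeR with the replicate number as a block called 5 of the 10 and 465 genes. Those 5 were, in both cases, H2-K1, H2-D1, B2m, Tap1 and Tapbp.

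H2-K1 stood at 7.26 and 15.6 CPM in the ADM controls and at 33.7 and 52.6 CPM with ADM (log2 1.89 ± 0.46, adjusted p = 0.519). B2m stood at 13.0 and 35.2 CPM and at 71.5 and 143 CPM (2.13 ± 0.60, adjusted p = 0.547). Tapbp, with 13.2 and 17.9 CPM against 46.1 and 43.9 CPM, had the lowest unadjusted p of the 10 (log2 1.51 ± 0.21, adjusted p = 0.428). Nlrc5 was at 0.952 and 3.87 CPM and at 12.6 and 11 CPM (2.25 ± 0.68, adjusted p = 0.547). H2-D1 differed by 1.22 ± 0.21, Tap1 by 1.77 ± 0.38, Tap2 by 2.41 ± 0.91 and Psmb9 by 2.12 ± 0.60. Psmb8 had 5 counts in the controls together and 29 with ADM (2.65 ± 0.56). Psmb10 overlapped between the groups (6.79 and 10.03 CPM, 13.3 and 9.80 CPM, log2 0.43 ± 0.32).

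The libraries of the ADM experiment were unlike each other, and the part of these differences in the class I levels was not tested. Irf7 was at 7.52 CPM in the first ADM library and at 1.85 CPM in the second, while mural and fibroblast markers summed to 67.5 CPM in the first and 1218 CPM in the second. The first control library had the lowest astrocyte sum of the experiment (705 CPM, against 1095 to 1378 CPM). It also had the lowest level of 9 of the 10 genes, Psmb8 being the exception. How many of all genes were lowest in that library was not counted. Without the first ADM library, edgeR called 641 genes and 2 of the 10, H2-D1 and Tapbp. Without the second it called 47 genes. Of the other class I genes, 0 of 13 were called, and H2-Q4 (1.55 ± 0.48, adjusted p = 0.547) and H2-T23 (1.73 ± 0.62, adjusted p = 0.560) had the lowest p. Stat3 had the lowest p among transcription factors (1.87 ± 0.24, adjusted p = 0.428). As an interaction, the ADM change minus the set 1 particle change was called by edgeR for 0 of the 10 genes and 0 of 17292 genes. At an unadjusted p under 0.05 it was higher with ADM for 1104 genes, 3 of the 10 among them, and lower for 664.

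The immunoproteasome subunits were set against the constitutive subunits that they replace, per kilobase. Psmb8 was between 0.295% and 7.12% of Psmb5 in the neuron libraries, and Psmb9 was between 0.149% and 2.11% of Psmb6. Psmb10 was between 14.02% and 25.3% of Psmb7 in the ADM and set 1 libraries and between 19.6% and 29.4% in set 2. In set 2, Psmb8 stood at 5.58% and 2.91% of Psmb5 in the controls, at 0.569% and 0.492% with the ApoE particle, and at 4.47% and 7.12% with the reconstituted particle. Psmb8 and Psmb9 transcripts were thus far below their counterparts in every culture, and Psmb10 was closer to its own. These shares are descriptions and were not tested.

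**Figure D4:**
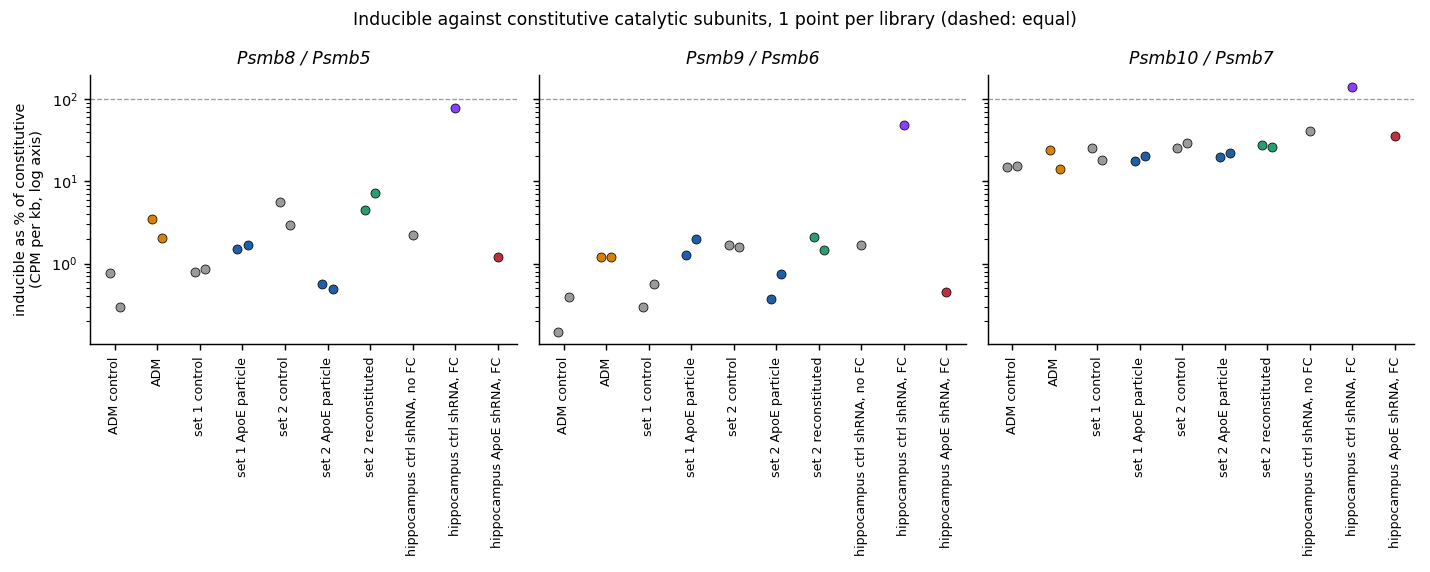
Inducible catalytic subunit as a percentage of its constitutive counterpart (CPM per kb, log axis) in each library; the dashed line marks equal levels. Neuron libraries stay at or below 7.12% for Psmb8 and 2.11% for Psmb9, and the hippocampus library with control shRNA and FC reaches 76.5% and 47.8%.

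Over the 14 neuron libraries, each gene was correlated with the mean of the other 9 on the log2(CPM + 1) scale. Pearson's r was highest for H2-K1 (0.982), Tapbp (0.975) and Tap1 (0.956), and lowest for Psmb10 (0.658) and Psmb8 (0.838). Among 11806 other genes with at least 5 CPM on average, those most alike in pattern to the mean of the 10 were Ifitm3 (r = 0.987), which restricts virus entry, Igtp (0.979), an immunity-related GTPase, Trim25 (0.970), Gm6548 (0.969), Trim30d (0.961), Trim30a (0.954), Shisa5 (0.952), Irgm1 (0.952), Zc3hav1 (0.951) and Ddx58 (0.948), the RNA sensor RIG-I. The points share the libraries, their depth and the separation of the experiments, so these values describe this set of libraries only.

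In the hippocampus, class I genes were high in 1 of the 3 libraries, with no replicate to check it. The targeted gene was looked at first. Apoe stood at 1697 CPM with control shRNA without FC, at 2797 CPM with control shRNA and FC, and at 1384 CPM with ApoE shRNA and FC. Apoe was thus lower in the ApoE shRNA library than in either control. The controls differed more from each other than the ApoE shRNA library differed from the control without FC. With 1 library per group, the effect of the shRNA on Apoe cannot be judged from these values. The intervals given here are exact 95% binomial intervals and cover counting error only.

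With control shRNA, all 10 class I genes were over 1.5-fold higher in the library with FC than in that without, which held for 15.9% of 16120 genes, while 7.23% were lower by as much. The median log2 ratio of the 10 was 4.22, against 0.03 over all genes. H2-K1 stood at 892 CPM with FC and 48.2 CPM without (log2 4.21, interval 4.11 to 4.31), H2-D1 at 1167 and 60.9 CPM, and B2m at 1276 and 81.4 CPM. Together the 10 genes made up 0.389% of all counts in the library with FC and 0.0253% in that without. Tap1 was at 133 and 7.05 CPM, Tap2 at 41.7 and 4.35 CPM, and Tapbp at 106 and 21.6 CPM. Nlrc5 had the largest ratio, 123 CPM against 3.63 CPM (log2 5.07, interval 4.72 to 5.45), followed by Psmb8 with 29.7 and 0.991 CPM and Psmb9 with 50.8 and 1.82 CPM. Psmb10 had the smallest, 70.2 against 22.8 CPM (log2 1.62, interval 1.46 to 1.78), and it was the subunit that passed its constitutive counterpart in this library, at 140% of Psmb7 per kilobase.

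Among libraries with FC, all 10 genes were over 1.5-fold lower with ApoE shRNA than with control shRNA, as were 22% of 16064 genes, while 6.30% were higher. The median log2 ratio was −4.99. The control library with FC is part of both ratios, so its level enters both. H2-K1 stood at 29.0 CPM, H2-D1 at 35.5 CPM and B2m at 56.7 CPM with ApoE shRNA. Nlrc5 had 14 counts against 2179 (log2 −7.32, interval −8.24 to −6.62), Psmb9 had 11 against 903, and Psmb8 had 12 against 528.

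The remaining pair of libraries differed less. Between ApoE shRNA with FC and control shRNA without FC, 5 of the 9 genes with at least 20 counts were lower by over 1.5-fold and 0 were higher, against 10.6% lower and 3.02% higher among 15607 genes. H2-K1 was lower by 0.74 on the log2 scale (log2 ratio −0.74, interval −0.89 to −0.58), H2-D1 had −0.78, Tap1 −0.88, Psmb9 −1.60 and Nlrc5 −2.25 (interval −3.24 to −1.45). B2m had −0.52. The intervals of Tap2 (−0.29 to 0.62), Tapbp (−0.29 to 0.12) and Psmb10 (−0.12 to 0.27) included 0. Psmb8, with 12 and 18 counts, was under the count minimum.

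**Figure D5:**
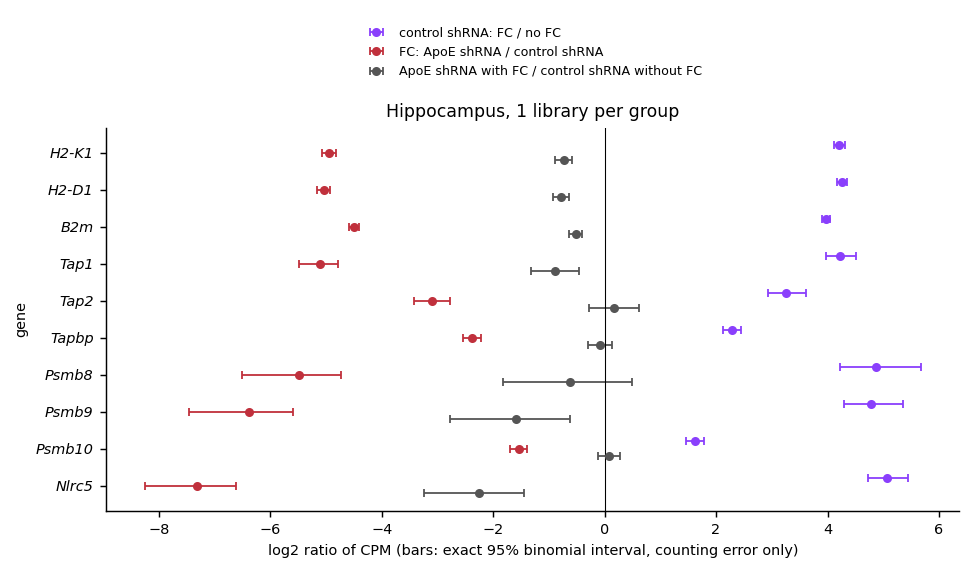
Log2 ratio of CPM of the 10 genes between hippocampus libraries, 1 library per group, with exact 95% binomial intervals that cover counting error only. The ratios that involve the control shRNA library with FC lie far from 0 for all 10 genes, and the third lies between −2.25 and 0.16.

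That control library with FC also stood apart for immune cell transcripts. T cell markers were over 1.5-fold higher than without FC in 7 of 7 cases, with sums of 46.9 CPM against 3.08 CPM, and 2.59 CPM with ApoE shRNA. Cd8a, the coreceptor for class I, had 323 counts against 5 and 0, Cd8b1 had 144 against 0 and 1, and Cd3d had 62 against 1 and 0. Microglia markers were higher in 12 of 13 cases, at sums of 1842 CPM against 439 CPM, and 330 CPM with ApoE shRNA. The leukocyte gene Ptprc was at 52.8 CPM against 6.11 and 2.75 CPM. Of 10 astrocyte markers, 2 were over 1.5-fold higher with FC than without under control shRNA and 0 were lower (median log2 ratio 0.12), with Gfap at 2117 CPM against 570 CPM, and 457 CPM with ApoE shRNA. Neuron markers summed to 7014 CPM there and to 8333 and 8344 CPM in the others. The part of these cells in the class I levels was not tested, and with 1 library a group they cannot be told apart from the treatment.

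Other genes of the route were higher in that library in part. Of 16 other class I genes, 15 were higher with FC and 1 was lower under control shRNA. H2-T23 was at 295 CPM against 8.97 CPM, H2-Q7 at 156 against 5.28 CPM and H2-Q4 at 132 against 5.62 CPM. Of 23 transcription factors, 10 were higher and 0 lower, with Irf7 at 58.1 CPM against 1.38 CPM. Of 16 peptide loading and trimming genes, 2 were higher and 0 lower (median log2 ratio 0.27). Of 14 constitutive core subunits, 0 passed 1.5-fold in either direction. Of 9 activator and assembly genes, 3 were higher and 0 lower, among them Psme1 (66.8 against 27.8 CPM) and Psme2 (36.5 against 13.5 CPM). The 10 genes summed to 3888 CPM in this library, against 253 CPM with control shRNA without FC and 176 CPM with ApoE shRNA and FC.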

How the data were processed

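The deposited files hold raw counts per gene, per the file headers and the values, in 4 tables with 17 libraries. Per the submitters' processing notes, Bowtie2 2.2.3, HISAT2 2.1.0, HTSeq 0.6.0 and mm10 were used; which tool did what, and with which strand setting, is not given in the sources used here. Per the labels, RNA was extracted with Trizol and libraries were made with the NEBNext Ultra kit. In set 2, 1489 genes without a value in some libraries were left out of the tests; none is among the 10 genes. CPM used library totals. Neuron comparisons used edgeR 4.0.16 (filterByExpr, TMM scaling, robust quasi-likelihood F test, Benjamini-Hochberg over all genes, threshold 0.05), and the 3 groups of set 2 shared a fit; the test was tried on simulated data. Hippocampus ratios used 0.5 added counts, a 1.5-fold threshold and a minimum of 20 counts in one library. Levels per kb used the principal GENCODE M21 transcript. Named genes were the 10 genes and, from each list, at most 4 called genes by adjusted p, or 2 by p if there was no call, and the 10 genes most alike in pattern; others, among them Irf7 under ADM and the hippocampus genes, were chosen after their values were seen. The genes and lists were chosen with earlier results of these data known. A gene among the listed transcription factors is not reported here.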

Additional observations from a re-analysis of the deposited data

Results flagged for a closer look

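The ApoE particle effect on 9 of the 10 genes had values of opposite sign in the 2 experiments, negative in set 2 and positive in set 1, and the difference passed an interaction test (edgeR, set 2 effect minus set 1 effect, 2 libraries per group, 4 residual degrees of freedom). The difference in log2 fold change was −2.52 ± 0.16 for H2-K1, −0.80 ± 0.11 for H2-D1 and −2.61 ± 0.17 for B2m. It was −2.90 ± 0.17 for Tap1, −3.35 ± 0.38 for Tap2 and −2.44 ± 0.16 for Tapbp. It was −4.10 ± 0.78 for Psmb8, −3.45 ± 0.56 for Psmb9 and −4.59 ± 0.28 for Nlrc5. Adjusted p-values ran from 1.95e-08 for Tap1 to 0.00096 for Psmb8. In set 1 alone, H2-D1 (0.10 ± 0.09) and Psmb8 (1.08 ± 0.52) had not passed. Psmb10 did not pass the interaction test (−0.13 ± 0.22, adjusted p = 0.712). The starting levels differed too, with Nlrc5 at 2.44 CPM on average in the set 1 controls and 18.6 CPM in the set 2 controls.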

How the results depend on the processing

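Leaving out each library in turn gave 9 of the 10 genes called throughout for the set 2 ApoE particle, for reconstituted against ApoE particle and for the interaction between sets. It gave 5 to 8 in set 1, 0 to 2 for ADM, 0 to 0 for reconstituted against control and 0 to 1 for ADM minus set 1. Genes called in all ranged from 3521 (without the second set 1 particle library) to 7610 in set 1 and from 2297 (without the first set 2 control) to 2942 for the set 2 particle. They ranged from 2249 to 2809 for reconstituted against ApoE particle, from 1 to 4 for reconstituted against control, and from 3492 (without the second set 1 particle library) to 6245 for the interaction. For ADM the range was 0 to 641, with 641 without the first ADM library, and for ADM minus set 1 it was 0 to 555, with 377 without the first ADM library and 555 without the second. Where this leaves a group with 1 library, that library is assumed to vary like the others.

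No member changed direction with a call under any alternative. For ADM, DESeq2 called 5 of the 10 genes and 333 in all, and the fit without a low-count filter called 3 and 128. For ADM minus set 1, DESeq2 called 1 of the 10 and 235 genes, no filter called 62 genes, and edgeR with RLE size factors called 1 gene. For reconstituted against control, no filter called 8 genes and a fit of the compared groups alone called 4. In the hippocampus, ApoE shRNA with FC was also set against control shRNA without FC at 2-fold in place of 1.5-fold. Of the 9 class I genes compared, 2 were then lower, in place of 5. The share of all genes at 2-fold was not counted. The cause was not tested in any of these cases.

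With the replicate number as a block, 5 of the 10 genes and 465 genes were called for ADM, 3 and 502 for ADM minus set 1, and 1 gene in all for reconstituted against control. It changed no other call of a member. Deviations of same-numbered libraries correlated at 0.62 in the ADM experiment, 0.06 in set 1, and −0.16, −0.14 and 0.10 in set 2. With 2 numbers per experiment and nothing in the labels on pairing, the samples share only a number.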
